A study of Rattus norvegicus with 17 samples.

Results

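Interferon-stimulated genes are the genes a cell switches on when it senses an interferon, and 32 names from this group, for 31 genes, were followed in the colon mucosa of rats fed a high or a low calcium diet. Genes were taken by the name the array design gives a probe. That found 20 of the 31 genes on 28 probes, among 41012 gene probes on the array, and 19 of the 20 had a probe bright enough to test. The 19 were 13 type I targets (Isg15, Ifit1, Ifit2, Ifit3, Mx1, Oas1b, Irf7, Stat2, Usp18, Ddx58, Ifi44, Ifitm3 and Bst2) and 6 type II targets (Gbp2, Gbp4, Gbp5, Igtp, Irf1 and Ifi47). Mx2 was well above background on 5 of 17 arrays and was not tested. Another 5 type I targets, Oas1a, Oasl, Irf9, Rsad2 and Ifi44l, stand on the array under older names and were reached through the accession of their probe. They are described beside the others and counted apart. No probe was matched for Oas2, Irf8, Gbp1, Iigp1, Ifih1 and Ifi27.

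All 17 rats were females of an inbred Fisher 344 background that carried the HLA-B27 and β2-microglobulin transgenes, which make such rats prone to spontaneous gut inflammation, and they were 8 to 10 weeks old at the start. The 8 rats of the high calcium group ate a purified Western-type diet with 120 mmol calcium per kg, and the 9 rats of the low calcium group ate the same diet with 30 mmol per kg, the difference being made up with glucose. Scrapings of the colon mucosa of each rat were compared, on 1 array per rat, with a pool of RNA from all animals, and the study asked whether dietary calcium limits colitis in these rats. Both groups carried the transgenes, no group without them was used here, and a value therefore describes a diet difference within inflammation-prone animals.

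Interferons fall into types with different receptors. Type I interferons, made by many cells in response to viral or bacterial nucleic acids, act through Jak1 and Tyk2 on a complex that holds Stat2 and Irf9 and binds the interferon-stimulated response element (ISRE). Type II interferon, made mainly by T cells and natural killer cells, acts through factors that bind the gamma-activated site (GAS), and it drives guanylate-binding proteins, immunity-related GTPases and Irf1 most strongly. Many targets answer both types. In the colon such genes are read in epithelial cells as well as in immune cells, and they are raised in inflamed mucosa.

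The letters of both elements, the classical ones of type I (ISRE) and type II (GAS) targets, were searched for in the promoters. The classes themselves were set by gene name and not by these letters. Promoter windows of 300 bases, 250 before and 50 after the annotated start, came from RefSeq on build GRCr8 and held 14 of the 19 tested genes. The ISRE letters, GAAA then any 2 bases then GAAA, on either strand, stood in 10 of the 14 windows (71.4%), against 3.92% of all 33469 windows of the table. The GAS letters TTCNNNGAA, which read the same on both strands, stood in 6 of the 14 (42.9%), against 8.87% of all windows. With a C required after the second GAAA the count was 9 of 14, against 0.881% of all windows. Among the type II targets 4 of 6 held the ISRE letters and 3 of 6 the GAS letters, and among the type I targets 6 of 8 and 3 of 8 did. A match is a string of letters, not a bound site, and windows with no match, as for Mx1 and Stat2, only lack these letters.

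The 250 bases before the start are printed below for 7 genes on which the results turn, 5' to 3' on the strand of the gene, with matches to either pattern in capitals. Irf7 and Ifitm3 are the tested members with the smallest p, Oas1a is the gene reached by accession with the smallest p, Bst2 and Gbp2 varied most between rats, and Irf1 and Igtp are type II targets with GAS letters. Irf7 is at chr1:205800024-205800273 (minus strand), Ifitm3 at chr1:205541759-205542008 (minus strand), Oas1a at chr12:41330216-41330465 (plus strand) and Bst2 at chr16:18254968-18255217 (minus strand). Gbp2 is at chr2:234005477-234005726 (plus strand), Irf1 at chr10:38417685-38417934 (plus strand) and Igtp at chr10:42874797-42875046 (plus strand).
Irf7: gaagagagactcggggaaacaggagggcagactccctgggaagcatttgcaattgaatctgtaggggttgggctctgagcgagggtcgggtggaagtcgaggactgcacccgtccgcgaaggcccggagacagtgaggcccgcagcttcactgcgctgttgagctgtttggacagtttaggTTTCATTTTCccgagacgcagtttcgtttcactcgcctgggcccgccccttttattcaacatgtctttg
Ifitm3: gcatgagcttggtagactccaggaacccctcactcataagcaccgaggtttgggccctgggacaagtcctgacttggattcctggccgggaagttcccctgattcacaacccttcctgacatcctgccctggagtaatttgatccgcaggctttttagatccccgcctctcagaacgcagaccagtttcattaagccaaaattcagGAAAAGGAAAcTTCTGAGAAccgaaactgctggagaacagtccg
Oas1a: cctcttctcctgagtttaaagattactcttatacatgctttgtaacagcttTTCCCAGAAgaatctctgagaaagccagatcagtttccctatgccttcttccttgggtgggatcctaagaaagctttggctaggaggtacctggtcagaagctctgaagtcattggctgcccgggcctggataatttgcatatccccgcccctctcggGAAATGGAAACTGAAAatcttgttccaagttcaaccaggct
Bst2: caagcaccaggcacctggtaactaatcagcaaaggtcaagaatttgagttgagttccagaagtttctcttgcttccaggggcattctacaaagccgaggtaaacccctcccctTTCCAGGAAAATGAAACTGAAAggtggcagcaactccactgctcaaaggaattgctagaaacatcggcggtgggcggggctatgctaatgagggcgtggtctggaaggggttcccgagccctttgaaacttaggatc
Gbp2: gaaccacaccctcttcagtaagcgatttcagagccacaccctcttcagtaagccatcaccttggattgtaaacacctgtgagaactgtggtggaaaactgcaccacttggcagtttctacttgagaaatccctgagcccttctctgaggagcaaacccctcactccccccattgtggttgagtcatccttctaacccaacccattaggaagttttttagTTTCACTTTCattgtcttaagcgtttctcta
Irf1: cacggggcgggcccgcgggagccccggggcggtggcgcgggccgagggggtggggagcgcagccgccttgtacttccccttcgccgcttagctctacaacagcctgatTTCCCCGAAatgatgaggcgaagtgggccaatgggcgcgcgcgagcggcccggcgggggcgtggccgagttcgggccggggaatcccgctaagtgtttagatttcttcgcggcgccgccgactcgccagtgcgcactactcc
Igtp: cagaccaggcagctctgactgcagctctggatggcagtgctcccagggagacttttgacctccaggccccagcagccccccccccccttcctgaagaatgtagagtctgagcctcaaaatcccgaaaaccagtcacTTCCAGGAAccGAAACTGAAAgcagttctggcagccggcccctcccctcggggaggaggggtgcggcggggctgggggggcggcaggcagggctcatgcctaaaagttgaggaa
In Irf7 the ISRE letters lie on the other strand and begin 69 bases before the start, and in Gbp2 they also lie on the other strand and begin 31 bases before it. Ifitm3 holds ISRE letters 44 and GAS letters 33 bases before its start. Oas1a holds 2 overlapping ISRE matches, 41 and 35 bases before its start, and GAS letters 199 bases before it. Bst2 is the only window in which a GAS match and an ISRE match share bases. Its GAS letters begin 137 bases before the start, and the ISRE match that shares bases with them begins 131 bases before it. Irf1 holds GAS letters alone, 142 bases before its start, and Igtp holds GAS letters 114 and ISRE letters 103 bases before its start.

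On the arrays 27101 probes were well above background in the rat's dye on at least 8 of 17 arrays and were tested, and at least 60.0% of gene probes were above background on each array. No tested probe passed an adjusted p of 0.05 between the diets (the smallest was 0.079), and 2594 probes, 9.57%, had an unadjusted p under 0.05. High calcium rat 3 and low calcium rat 16, hybridised on the same slide, decided that count: without rat 3 there were 274 probes past the adjusted threshold, and without rat 16 there were 76. All 9 markers of colon epithelium were well above background on all 17 arrays. Of the 4 tested smooth muscle markers Des, Myh11 and Tagln were too, whereas Cnn1 was on 8. Nothing in the labels ties rats to litters, and the limma p-values set a diet difference against the spread between rats of the same diet.

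Interferon-stimulated genes differed little with the diet. None of the 19 members passed the adjusted threshold in the limma test, as for 0% of all tested probes. An unadjusted p under 0.05 was seen in 2 of 19, beside 9.57% of all tested probes. These were Ifitm3 and Irf7, in opposite directions. Subtracting the low from the high calcium mean, the log2 differences ran from -0.41 for Ifitm3 to 0.26 for Irf7 with a median of 0.036, beside a median of 0.0069 over all tested probes. Of the 19, 12 were higher and 7 lower, beside 54.1% of all tested probes higher. The difference was under 0.2 in 17 of 19, and the share of all tested probes under 0.2 was not counted. The 95% confidence interval lay within 0.5 of zero for 18 of 19, the exception being Ifitm3. In a bulk extract fewer cells that express a gene and less RNA per cell cannot be told apart.

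**Figure D1:**
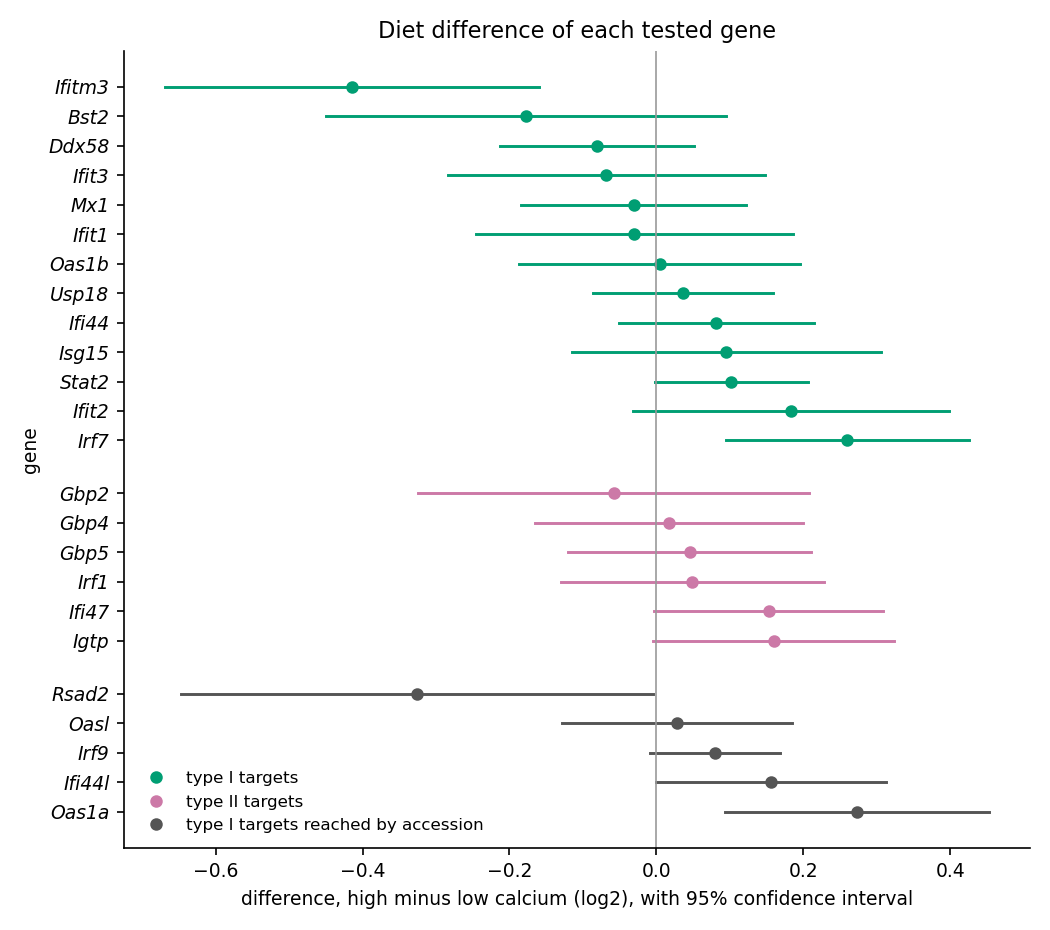
Difference between the diets (high minus low calcium, log2, horizontal axis) for the 19 members and the 5 genes reached by accession (vertical axis). Points are the estimates and lines their 95% confidence intervals; the intervals of Ifitm3, Irf7, Oas1a and Rsad2 leave out zero before adjustment, and no gene had an adjusted p under 0.20.

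Among the antiviral effectors, Ifitm3, a membrane protein that blocks entry of enveloped viruses, had the largest difference of the members. Its log2 ratio to the pool in the high calcium rats was -0.96 at the lowest, -0.30 at the median and 0.18 at the highest, and in the low calcium rats -0.20, 0.12 and 0.46. The low calcium rats lay close together with all but rat 15 above zero, whereas 5 of 8 high calcium rats fell under the lowest of them. Its mean was -0.27 ± 0.37 (SD, n = 8) on high and 0.14 ± 0.18 (SD, n = 9) on low calcium, a difference of -0.41 ± 0.12 (SE), or a level 1.33-fold higher on low calcium, with a limma p of 0.0028 and an adjusted p of 0.20. Within the slides that held both diets the difference was -0.15, -0.24, -0.46 and -0.82, of 1 sign on each. The difference was -0.48 (adjusted p = 0.055) without rat 3 and -0.42 (adjusted p = 0.19) without rat 16, and it was smallest, at -0.32 (adjusted p = 0.41), without rat 18, the lowest rat. The related Ifitm1 and Ifitm2, which were not among the members, had differences of -0.19 ± 0.09 (SE) and -0.08 ± 0.04, with limma p-values of 0.050 and 0.051. Proteins of this family are alike in sequence, so their probes may share target, which was not tested. The array's accession for Ifitm3 was not found in the current RefSeq table, so that its name is that of the array design. The same holds for the probes by which Isg15, Ifit1, Ifi44, Ddx58, Igtp, Gbp4 and Gbp5 were read.

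No macrophage marker passed the adjusted threshold. All 5 tested genes of the 6 macrophage and monocyte markers had negative differences, with a median of -0.13, and Csf1r (-0.21) and Cd68 (-0.33) had limma p-values of 0.0022 and 0.0018 and adjusted p-values of 0.19 and 0.18. Their summed Cy5 signal ran from 74032 to 98311 in high and from 61665 to 113301 in low calcium rats, and Cd163, a marker of resident macrophages, was well above background on 0 arrays. High calcium rat 18, the lowest for Ifitm3, had the lowest mean of all 17 rats over the macrophage (-0.33), T cell (-0.25), smooth muscle (-0.49) and endothelial (-0.28) markers and the highest over the epithelial markers (0.38). The part of these cells in the Ifitm3 difference was not tested. Over all tested probes rat 18 was also the lowest of 17 rats in 13.3% and the highest in 12.2%, the largest shares of any rat. Of the other cell markers, 1 of 7 T cell genes was higher on high calcium (median -0.11), 4 of 5 natural killer cell genes (0.09), 2 of 4 B and plasma cell genes (-0.08), 0 of 3 dendritic cell genes (-0.05), 7 of 9 epithelial genes (0.10), 1 of 4 smooth muscle genes (-0.17) and 1 of 3 endothelial genes (-0.10), and no marker had an adjusted p under 0.05 in limma.

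Bst2, also called tetherin, holds budding virions on the cell surface. It ran from -0.84 through -0.29 to -0.10 (lowest, median and highest) on high calcium and from -0.84 through -0.14 to 0.22 on low calcium. High calcium rats 13 and 18 and low calcium rat 16 had the lowest values, 3 low calcium rats lay above every high calcium rat, and the rest of the groups overlapped. The difference was -0.18 ± 0.13 (SE) with an adjusted p of 0.72, and the gene's other probe gave -0.18.

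The 3 Ifit genes, whose proteins bind foreign RNA and hinder its translation, did not share a sign. Ifit1 ran from -0.04 through 0.16 to 0.54 on high and from -0.42 through 0.27 to 0.51 on low calcium. Ifit3 ran from -0.37 through -0.15 to 0.22 on high and from -0.57 through -0.02 to 0.22 on low calcium. Low calcium rat 16 was the lowest of all 17 for both, and high calcium rat 3 the highest, so the single rats spanned more than the diets, whose differences were -0.03 ± 0.10 for Ifit1 and -0.07 ± 0.10 (SE) for Ifit3. Ifit2 differed by 0.18 ± 0.10 (a limma p of 0.091, adjusted p = 0.60), with all 8 high calcium rats above the median of the low calcium rats. The Ifit1 value comes from a probe with a predicted accession that was not found in the current table, and the probe annotated to the curated Ifit1 transcript was above background on 0 arrays.

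Isg15, a ubiquitin-like protein that is coupled to other proteins, was called G1p2 in the array design. It ran from -0.24 through -0.03 to 0.12 on high and from -0.58 through -0.10 to 0.22 on low calcium. All high calcium values lay inside the range of the low calcium rats, among which rats 5, 11 and 16 were below every high calcium rat. The difference was 0.10 ± 0.10 (SE, adjusted p = 0.82), and Usp18, the protease that removes Isg15 and also damps type I signalling, differed by 0.04 ± 0.06. Mx1, a GTPase that traps viral nucleocapsids, ran from -0.15 through -0.02 to 0.16 on high and from -0.19 through -0.01 to 0.32 on low calcium. Its difference was -0.03 ± 0.07 (SE), and the wider low calcium range enclosed all high calcium rats.

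Oas1a and Oas1b belong to the oligoadenylate synthetases, which sense double-stranded RNA. Oas1a, reached by accession, ran from -0.23 through 0.04 to 0.26 on high calcium and from -0.59 through -0.18 to 0.01 on low calcium. Above every low calcium rat lay 5 high calcium rats, and below every high calcium rat lay 4 low calcium rats. Its mean was 0.04 ± 0.14 (SD, n = 8) against -0.24 ± 0.23 (SD, n = 9), a difference of 0.27 ± 0.09 (SE), or 1.21-fold, with a limma p of 0.0048 and an adjusted p of 0.24. The difference was 0.47, 0.27, 0.08 and 0.39 within the slides that held both diets, and 0.23 without low calcium rat 11 or 16 (adjusted p-values of 0.44 and 0.30), the smallest with any rat left out. Oas1b, above background on 9 of 17 arrays, differed by 0.0044 ± 0.092 (SE) and changed sign in 10 of 29 alternative settings, and Oasl differed by 0.03 ± 0.08.

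Rsad2, or viperin, which makes a chain-terminating nucleotide against viral polymerases, was the most variable gene reached by accession. It ran from -0.40 through -0.10 to 0.08 on high and from -0.50 through 0.19 to 0.92 on low calcium. Above every high calcium rat lay 5 low calcium rats, and the SD was 0.47 on low and 0.18 on high calcium. The difference was -0.33 ± 0.15 (SE) with a limma p of 0.047 and an adjusted p of 0.51. With the slide as a block the p was 0.12, and within slides the difference was -0.47, 0.21, -0.60 and -0.19, so it changed sign on 1 of 4. Of the 5 genes reached by accession, 2 had an unadjusted p under 0.05 in limma, beside 9.57% of all tested probes, and none an adjusted one, beside 0%.

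**Figure D2:**
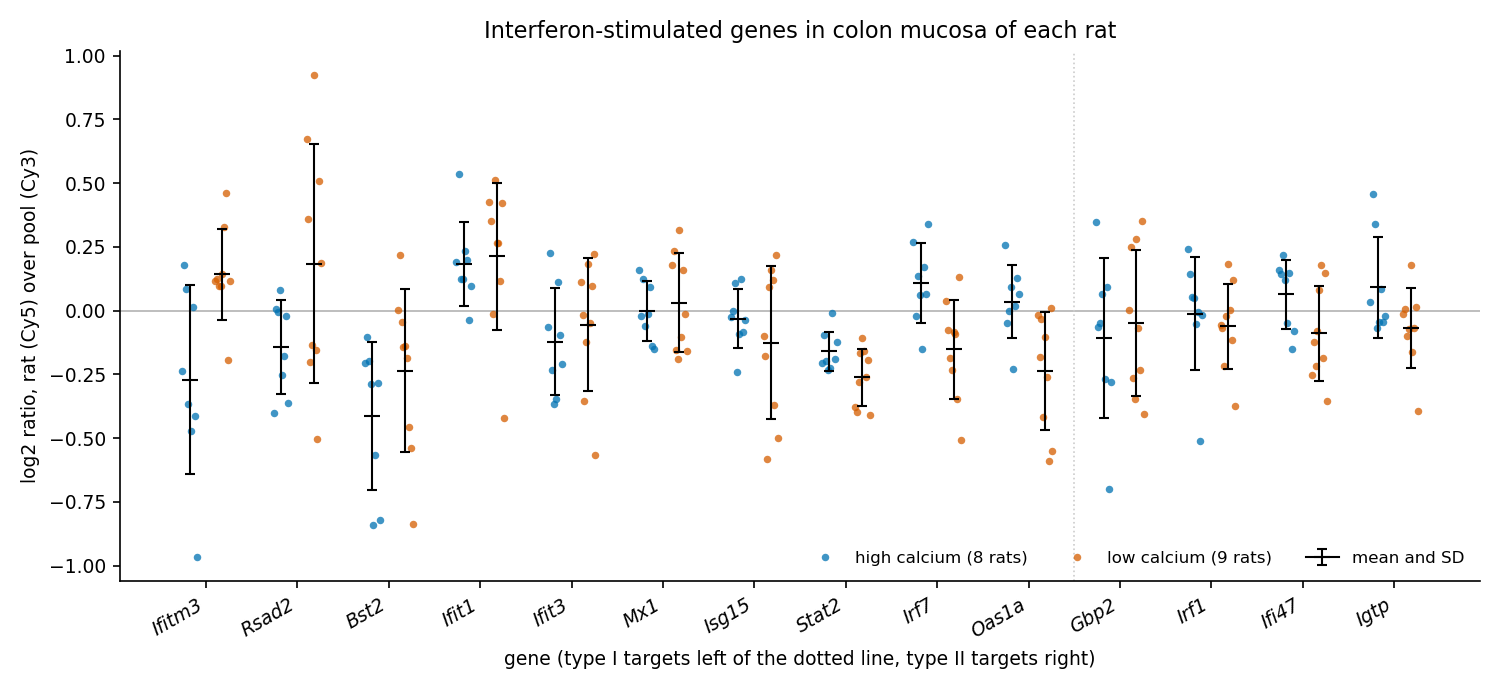
Log2 ratio of each rat to the pool of all animals (vertical axis) for 14 genes (horizontal axis), with high calcium rats in blue and low calcium rats in orange; bars are the mean and SD. In each gene the diets overlap, and the low calcium rats are the more scattered in Rsad2, Isg15 and Ifit1.

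The transcription factors Irf7, Stat2 and Irf9 had positive differences. Irf7, which amplifies type I interferon production, ran from -0.15 through 0.10 to 0.34 on high and from -0.51 through -0.09 to 0.13 on low calcium. Above every low calcium rat lay 4 high calcium rats, and below every high calcium rat lay 4 low calcium rats. Its mean was 0.11 ± 0.16 (SD, n = 8) against -0.15 ± 0.19 (SD, n = 9), a difference of 0.26 ± 0.08 (SE), or 1.20-fold, with a limma p of 0.0038 and an adjusted p of 0.22. Within the slides that held both diets it was 0.42, 0.31, 0.10 and 0.31, and without low calcium rat 16, the lowest rat, it was 0.22 (adjusted p = 0.26), the smallest with any rat left out. Stat2, part of the ISRE-binding complex, ran from -0.23 through -0.19 to -0.01 on high and from -0.41 through -0.26 to -0.11 on low calcium. All 8 high calcium rats exceeded the median of the low calcium rats, and the difference was 0.10 ± 0.05 (SE) with a limma p of 0.055 and an adjusted p of 0.54. Irf9, the DNA-binding member of that complex, differed by 0.08 ± 0.04 (a limma p of 0.073, adjusted p = 0.57). Ddx58, the RNA sensor RIG-I, differed by -0.08 ± 0.06, and its 2 tested probes did not share a sign.

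None of the 6 type II targets had an unadjusted p under 0.05 (limma). Of the 6, 5 were higher and 1 lower on high calcium, beside 54.1% of all tested probes higher, with a median difference of 0.047. Single rats decided that count and median: without high calcium rat 2, 3 of 6 were higher with a median of 0.0059, and without high calcium rat 17, 6 of 6 were with a median of 0.097. Igtp, an immunity-related GTPase that acts on vacuoles holding pathogens, ran from -0.07 through 0.01 to 0.46 on high and from -0.39 through -0.07 to 0.18 on low calcium. High calcium rats 3 and 9 stood above the rest and low calcium rat 16 below it, and the difference was 0.16 ± 0.08 (SE, a limma p of 0.057, adjusted p = 0.54). Without rat 3 it was 0.11 and without rat 16 it was 0.12. Ifi47, a GTPase of the same family, ran from -0.15 through 0.13 to 0.22 on high and from -0.35 through -0.12 to 0.18 on low calcium. In 7 of 8 high calcium rats it exceeded the low calcium median, and the difference was 0.15 ± 0.07 (SE, a limma p of 0.054, adjusted p = 0.53). Both differed by slide: 0.44, 0.22, 0.01 and -0.0059 for Igtp and 0.39, 0.32, -0.08 and -0.10 for Ifi47.

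Irf1, the factor through which type II interferon reaches many later targets, ran from -0.51 through 0.02 to 0.24 on high and from -0.37 through -0.06 to 0.18 on low calcium. High calcium rat 17 lay alone at the bottom, the next rat of that diet being at -0.05, and the difference was 0.05 ± 0.09 (SE, adjusted p = 0.91), or 0.12 (adjusted p = 0.61) without that rat. Gbp2, a guanylate-binding protein that coats intracellular bacteria, ran from -0.70 through -0.06 to 0.35 on high and from -0.41 through -0.07 to 0.35 on low calcium. The lowest rat was again high calcium rat 17, the highest values were the same to 2 decimals, and the difference was -0.06 ± 0.13, or 0.03 without that rat. Gbp4 (0.02 ± 0.09) and Gbp5 (0.05 ± 0.08) differed by less than their standard errors.

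Type I and type II targets did not separate by diet. The type I median difference was 0.0044, with 7 of 13 higher, and the type II median was 0.047, with 5 of 6 higher. Over all tested probes the median was 0.0069 and 54.1% were higher. Averaged over a class after centring each gene, type I targets stood at 0.00 ± 0.11 (SD, n = 8) on high and 0.00 ± 0.14 (SD, n = 9) on low calcium, and type II targets at 0.03 ± 0.17 and -0.03 ± 0.17. The gap between the class means of a rat, type II minus type I, was 0.03 ± 0.12 on high and -0.03 ± 0.06 on low calcium. It was widest in high calcium rats 2 (0.21) and 17 (-0.21). Within the slides that held both diets the type I difference was 0.19, 0.10, -0.14 and -0.12 and the type II difference 0.32, 0.24, -0.12 and -0.16, so both classes changed sign between slides, and without low calcium rat 16 the medians were -0.0054 and 0.0067.

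In 16 of 19 members the diet difference was smaller than the SD between rats of the same diet, a count not made over all tested probes. With 8 and 9 rats a difference of 1 SD lies near an unadjusted limma p of 0.05, and 9.57% of all tested probes were under that p. The count therefore largely restates the p-values. The SD between rats within a diet had a median of 0.19 over the 19 members, against 0.12 over all tested probes. Of the 19, 18 lay above the median probe and 9 above the 90th percentile. Bst2 (0.31), Gbp2 (0.30), Ifitm3 (0.29), Ifit1 (0.24) and Ifit3 (0.24) had the highest SD, and Stat2 (0.10) the lowest. Among the genes reached by accession, Rsad2 (0.36) exceeded 98.9% of probes while Irf9 (0.07) exceeded 7.22%. Stat2 and Irf9, both parts of the ISRE-binding complex, were the least variable of the genes tested. The count above the 90th percentile was 12 with median centring, 5 with the Cy5 channel alone and 1 with signals as processed by the scanner software. The 34 other interferon targets that were tested had a median SD of 0.12, near that of all probes.

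**Figure D3:**
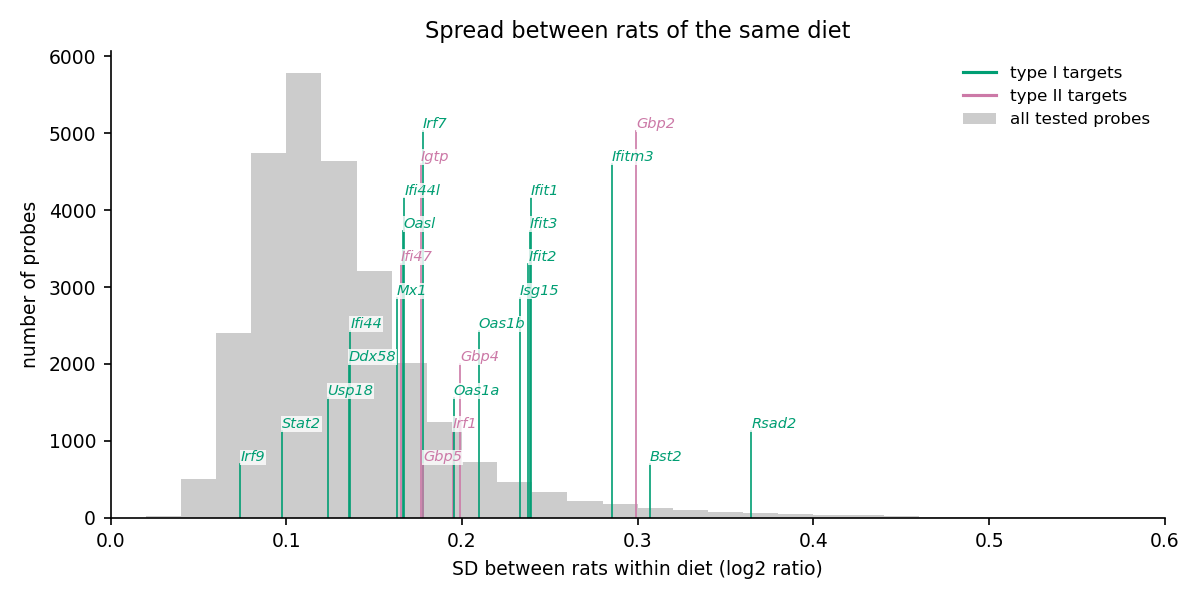
SD of the log2 ratio between rats within a diet (horizontal axis) for all 27101 tested probes (grey bars, number of probes on the vertical axis) and for the 19 members and 5 genes reached by accession (coloured lines; line height has no meaning). Most lines stand to the right of the bulk of probes, with Rsad2, Bst2, Gbp2 and Ifitm3 farthest out and Irf9 and Stat2 to the left.

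The spread was shared between genes, so that some rats were low or high in nearly the whole group. Low calcium rat 16 was below the mean of its own diet in 19 of 19 members and the lowest of all 17 rats in 9, whereas 48.8% of all tested probes were below the diet mean in that rat and 4.19% were lowest there. Low calcium rat 5 and high calcium rat 13 were each below their diet mean in 18 of 19 members, against 49.1% and 52.9% of all probes. Low calcium rat 7 was above its diet mean in 19 of 19, and low calcium rat 15 and high calcium rat 9 in 16 of 19. Both classes took part: rat 16 was below in 13 of 13 type I and 6 of 6 type II targets, and rat 7 above in both. The mean over type I targets ran from -0.30 in rat 16 to 0.17 in rat 7, both on low calcium, and rat 16 was also the lowest in the mean over type II targets (-0.33), where high calcium rat 2 was the highest (0.27).

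Low rats were also counted in interferon targets outside the group. Of the 34 other tested interferon targets, 32 were below the diet mean in rat 16, 25 in rat 5 and 26 each in rats 13 and 17, and rat 16 was the lowest of all 17 rats in 9. The high end was different: rat 7, the highest of its diet in the mean over the members, was above its diet mean in 23 of the 34, as was rat 15, but rat 4 was in 26 and rat 8 in 24, and in the mean over the 34 genes rat 7 was in place 6 of 9, counted from the lowest. Among the 5 genes reached by accession, rat 16 was below in 4, rat 13 in 5 and rat 7 in none. Rat 16 also had the lowest mean over the natural killer cell markers (-0.32), whereas its means over T cell (-0.08), macrophage (-0.09) and epithelial markers (0.04) lay inside the range of the other low calcium rats and that over endothelial markers (-0.09) was the lowest of its diet. The part of these cells in the low values of rat 16 was not tested.

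**Figure D4:**
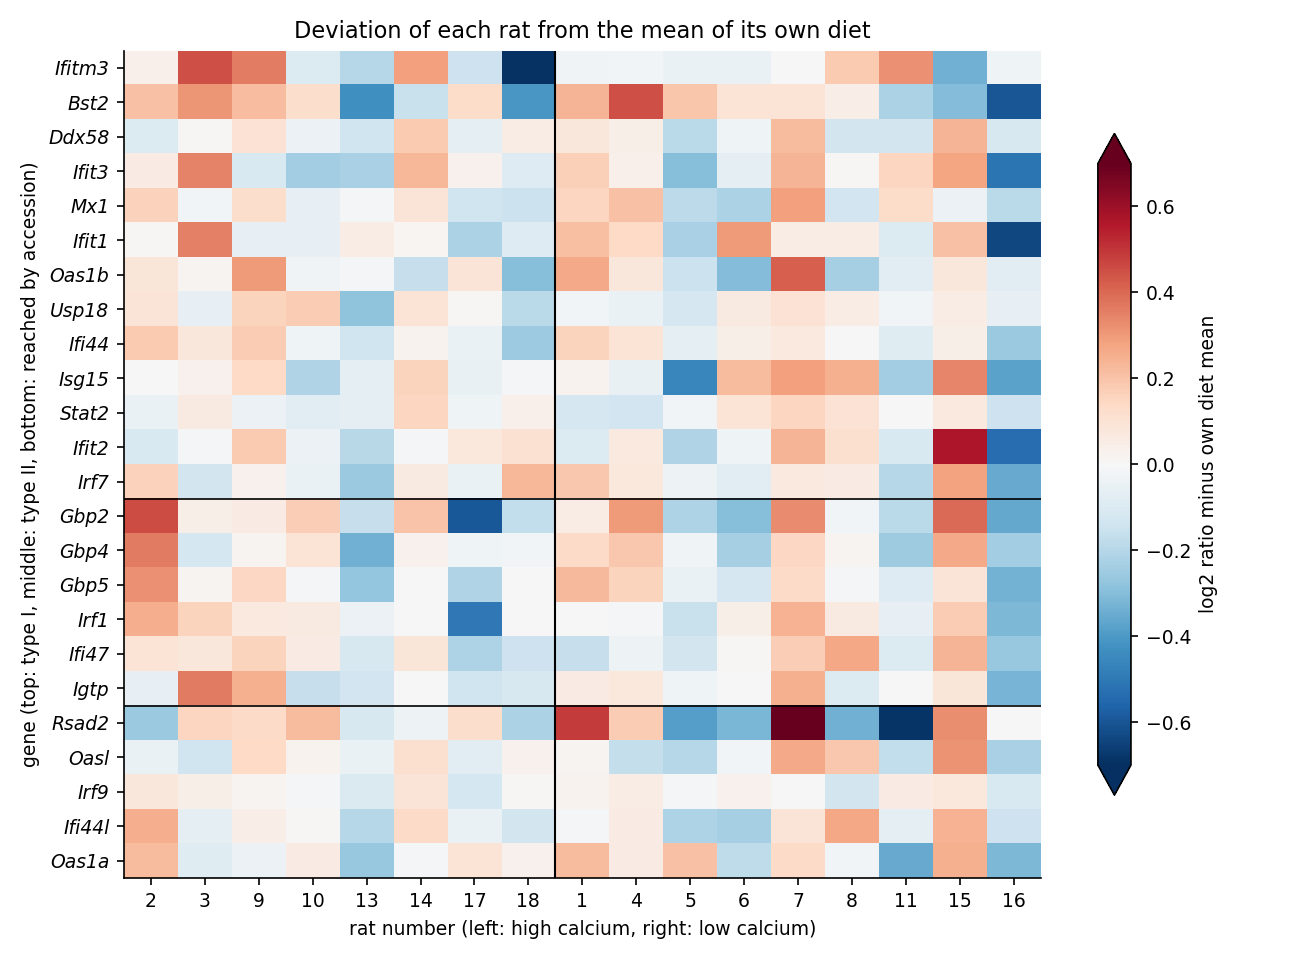
Log2 ratio of each gene (rows) in each rat (columns) minus the mean of that rat's own diet, in colour, with values beyond 0.7 at the end of the scale. The column of low calcium rat 16 is blue in all 19 members and that of rat 7 red, while rats 2 and 17 of the high calcium diet differ between the type I and type II blocks.

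**Figure D5:**
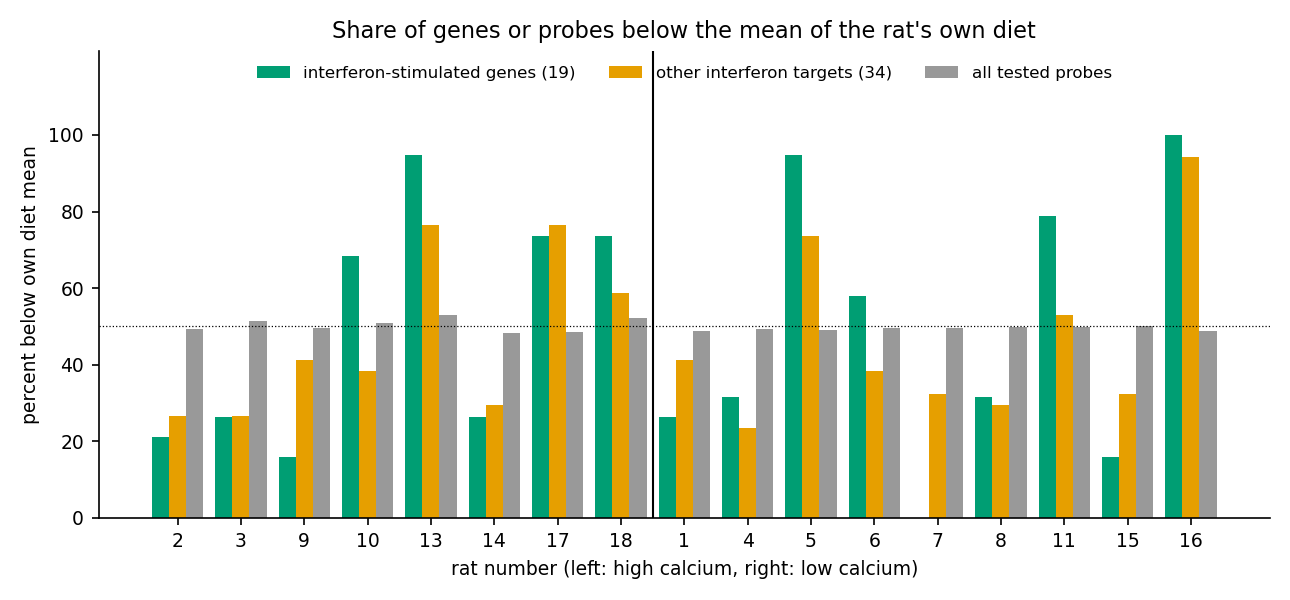
Percent of genes or probes (vertical axis) below the mean of the rat's own diet, for each rat (horizontal axis), over the 19 members, the 34 other interferon targets and all tested probes. All probes stay near the dotted line in each rat, whereas the members run from 0% in rat 7 to 100% in rat 16.

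The interferon pathway outside the members was measured through a list of 92 names, of which 58 were tested, 4 were too dim and 30 had no probe matched. Some names are older or other names of a gene also listed, so fewer than 30 genes lacked a probe. Of the 58 tested, 34 were other interferon targets and not upstream genes. None of the 58 passed the adjusted threshold (limma). On high calcium 37 were higher and 21 lower, beside 54.1% of all tested probes higher. In limma 9 had an unadjusted p under 0.05, 8 of them higher (13.8% of the 58, beside 4.40% of all probes) and 1 lower (1.72%, beside 5.17%). Of the 8 higher genes 6 were other targets, as was the gene that was lower. The median difference over the 58 was 0.024. Of the ligands, Ifng, the type II interferon, ran from -0.62 through -0.04 to 0.52 on high and from -0.21 through 0.11 to 0.34 on low calcium. The high calcium rats spread to both sides of the low calcium rats, and the difference was -0.17 ± 0.12 (SE, adjusted p = 0.71). Ifnb1 was well above background on 2 of 17 arrays and Ifna1 on 0, so no difference of these type I interferons was read, while Ifna4 differed by -0.11 ± 0.08. The receptor chains Ifnar1 (-0.03 ± 0.06) and Ifngr1 (0.08 ± 0.07) had small differences, with adjusted p-values of 0.91 and 0.76. Socs1, the feedback inhibitor of Jak kinases, differed by 0.07 ± 0.08.

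Irf2, which competes with Irf1 for the same DNA sites, differed by 0.20 ± 0.07 (SE, a limma p of 0.0069, adjusted p = 0.28). Each of the 8 high calcium rats exceeded the low calcium median of -0.02. The other targets with the smallest p were Ube1l, an older name for the Isg15-activating enzyme, Herc6, a ligase of the family that couples Isg15 to proteins in rodents, Trim25, a ligase that activates RIG-I, and Adar, which edits double-stranded RNA. Ube1l ran from 0.01 through 0.19 to 0.32 on high and from -0.19 through -0.02 to 0.15 on low calcium. That was 6 high calcium rats above every low calcium rat, and a difference of 0.19 ± 0.05 (SE, a limma p of 0.0019, adjusted p = 0.18). Herc6 ran from -0.05 through 0.26 to 0.52 on high and from -0.52 through -0.06 to 0.35 on low calcium, a difference of 0.31 ± 0.10 (SE, a limma p of 0.0076, adjusted p = 0.29). Rat 16 was the lowest for both. Trim25 (0.17 ± 0.06) and Adar (0.16 ± 0.06) had adjusted p-values of 0.33 and 0.35. The rest of the 9 with an unadjusted p under 0.05 were the RNA receptor Tlr3 (0.18), the RNA-activated kinase Eif2ak2 (0.11), the Isg15-conjugating enzyme Ube2l6 (0.10) and Ifitm1, which was lower (-0.19). Cxcl10, a chemokine that calls T cells and answers both interferon types, differed by 0.04 ± 0.13 with an adjusted p of 0.95.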

How the data were processed

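The deposited scanner files give spot intensity (mean and background signals of both dyes, with flags) written, per the file headers, by Agilent Feature Extraction 9.5.1.1 (9.5 in the submitters' processing notes). Values of the series matrix are log2 values deposited by the authors, with centring not stated (array medians 8.71 to 8.73); they followed median-centred log ratios without background correction (r = 0.983 across probes and arrays, genes centred) and served as an alternative. Each rat was in Cy5 and the pool in Cy3 on every array, with no dye swap, so a dye effect is common to both diets.

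Local backgrounds flagged as not uniform were set to the array's median background, because single flagged spots on the arrays of rats 8, 11 and 16 distorted the background model (its SD reached 1059, against 10.8 at most elsewhere); this was decided after seeing the data. Signals were then corrected with normexp (offset 50), normalised by loess within arrays and averaged over spots of a probe, and log2 ratios were fitted with limma 3.58.1 in R 4.3.3, without covariates, with Benjamini-Hochberg adjustment over the 27101 probes whose Cy5 signal was well above background on 8 or more arrays. The fit was tested on simulated data. A gene was read from its brightest tested probe. Values of different probes were not compared. Groups came from sample titles and slides from the scan headers: slides 1 to 4 held 2 rats of either diet each and slide 5 low calcium rat 1.

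Members, pathway and marker lists and tests were chosen with earlier results of these data known. Values by rat are given for members with an unadjusted p under 0.05, the 5 with the highest SD within diet, and Isg15, Mx1, Oas1a, Ifit3, Irf7, Stat2, Irf1, Gbp2, Igtp and Ifi47; of the pathway list, for the 5 smallest p and Ifng, Ifnb1, Ifnar1, Ifngr1, Socs1 and Cxcl10; 1 further gene of that rule is not reported here. Accessions were matched without version to RefSeq genes of GRCr8. The number of arrays limits the precision. Alternatives covered background correction, normalisation, the dim-probe filter, array weights, the variance model, the slide as a block, the probe of a gene and each rat left out.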

Additional observations from a re-analysis of the deposited data

Results flagged for a closer look

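Irf1 in high calcium rat 17 had a log2 ratio of -0.51, and the nearest other rat of that diet was at -0.05, a gap of 0.61 of the range of the group, above Dixon's 95% critical value. It was the only such value among 52 groups examined (the tested genes and the class means, in either diet), where chance alone gives about 1 in 20. Gbp2 was also lowest in this rat (-0.70).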

How the results depend on the processing

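No paired analysis was possible because the replicate numbers are rat numbers that the diets do not share. No member passed the adjusted threshold under any of 30 alternatives, and the number with an unadjusted p under 0.05 was 2 or 3 outside the fits that left out a rat and 2 to 5 in them (5 without high calcium rat 13 or low calcium rat 7 or 15). Ifitm3, Irf7 and Oas1a kept their sign and an unadjusted p under 0.05 under every alternative run for them (30 each). The sign of Oas1b turned in 10 settings, of Gbp4 in 5, of Ifit1, Gbp2 and Oasl in 2 each and of Mx1 and Gbp5 in 1 each, and that of the type I median in 9 of 33, within -0.03 to 0.06. Probes past the adjusted threshold numbered 0 in the reported fit, 90 with array weights, and 0 to 274 with a rat left out (274 without high calcium rat 3, 76 without low calcium rat 16). Members above the 90th percentile of spread numbered 9, also with flagged backgrounds kept as scanned, 12 with median centring and 10 without background correction. They numbered 7 with series matrix values, 5 with the Cy5 channel alone and 1 with signals as processed by the scanner software. Of these alternatives, only median centring and the Cy5 channel alone were planned for this count. The others were chosen after seeing the data, as were all runs with flagged backgrounds kept as scanned and the run with the genes reached by accession added. Rat 16 was below its diet mean in 18 or 19 and rat 7 in 0 or 1 of 19 members in all 7 settings in which this was counted. With the slide as a block Rsad2 had an unadjusted p of 0.12. Counting Irf8 and Iigp1 with the type II targets could not be run, as no probe was matched to them. The causes were not tested. Dim probes limit Mx2, Ifnb1 and Ifna1, for which no difference was read.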
